A study of Mus musculus with 8 samples.

Results

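The genes of the phosphocreatine and adenine nucleotide energy system changed in opposite directions in dystrophic muscle. The RNA of the abundant enzymes of the mature fiber was lower in *mdx5cv* tibialis anterior (TA) muscle than in WT. That of the scarce isoforms and the creatine synthesis enzymes was higher. All 5 lower genes kept their direction under every scaling tried. *Ckmt2* and *Ampd1* stayed called (adjusted p under 0.05) in all 20 alternative fits. *Adssl1* lost its call in 2 of these, both other scalings. *Ckm* lost its call in 4, none of them a scaling, and *Ak1* in 7, the same 2 scalings among them. *Ckm*, the muscle creatine kinase, was at 60.6% of its WT level and *Ckmt2*, the mitochondrial creatine kinase of muscle, at 42.8%. *Ckb*, the brain-type creatine kinase, was at 346% of WT, *Gatm* and *Gamt*, which make creatine, were at 421% and 224%, and *Ampd3*, the AMP deaminase best known from red blood cells, was at 299%. *Slc6a8*, the creatine transporter, was at 109% and did not pass the test.

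The set holds 10 genes, *Ckm*, *Ckmt2*, *Ckb*, *Slc6a8*, *Gatm*, *Gamt*, *Ampd1*, *Ampd3*, *Ak1* and *Adssl1*, chosen by name for their place in creatine and purine nucleotide metabolism and all found among the 55401 genes of the deposited table. Bulk RNA-seq was done on 4 whole TA muscles of WT mice of the C57/Bl6 strain and 4 of *mdx5cv* mice on the B6 background, all male and 6 mo old. *mdx5cv* is a model of Duchenne muscular dystrophy (DMD) that carries a mutation in *Dmd*, the dystrophin gene, in every cell, and no animal received a treatment. The labels number the muscles within each genotype but do not say that each came from a separate mouse, so p-values here measure only the spread between these muscles.

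Creatine kinases move a phosphate group between ATP and creatine, so that phosphocreatine can refill ATP within moments of a contraction. The cytosolic enzymes are dimers of the M and B subunits, and the mitochondrial enzyme CKMT2 sits in the space between the mitochondrial membranes and charges creatine there. Creatine itself is made in a pair of steps, by glycine amidinotransferase (GATM) and guanidinoacetate methyltransferase (GAMT), mostly outside muscle, and muscle takes it up through SLC6A8. When ADP builds up, adenylate kinase (AK1) joins ADP molecules into ATP and AMP, AMP deaminase (AMPD1 in muscle) converts AMP to IMP, and adenylosuccinate synthetase (ADSSL1 in muscle) with adenylosuccinate lyase returns IMP to AMP, which closes the purine nucleotide cycle.

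The unit throughout is the normalized count, which is the number of reads of a gene divided by a size factor of its muscle. Recovered reads ranged from 13862559 to 14921057 per WT muscle and from 13175524 to 14502624 per *mdx5cv* muscle, so the lowest member value, 36 reads of *Ckb* in WT replicate 3, carries more counting error than the others. *Dmd* was at 6954 ± 857 normalized counts in WT and 3964 ± 388 in *mdx5cv* (SD, n = 4). Its log2 fold change was -0.81 (SE 0.12, limma adjusted p = 0.000177), with no overlap of the groups. Fast fiber markers, which define this muscle, summed to between 842882 and 1089835 in WT and between 645676 and 983297 in *mdx5cv*, with 4 of 8 genes lower and none higher. Markers of other cells also differed. Higher were 8 of 8 macrophage, 7 of 8 fibroblast, 7 of 7 regenerating fiber and 4 of 7 slow fiber genes. The slow fiber list also had 1 lower gene. Lower too were 5 of 5 endothelial, 3 of 5 erythrocyte, 2 of 3 tested adipocyte and 3 of 5 Schwann cell genes. All these marker calls are at a limma adjusted p under 0.05, at which 20.9% of all genes tested were higher and 20.1% lower. *mdx5cv* replicate 4 stood apart, with the lowest fast fiber sum and the highest macrophage sum (9666, against 3986 to 5659 in the other *mdx5cv* muscles), fibroblast sum (50445, against 26337 to 35136) and regenerating fiber sum (10697, against 3049 to 5993). In bulk muscle, fewer cells of a type and less RNA per cell cannot be told apart.

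Of the 13677 genes tested, whose mean over the 8 muscles was 10 or more normalized counts, 40.9% differed between the groups at an adjusted p under 0.05 (limma on log2(normalized count + 1), Benjamini-Hochberg), 20.9% higher and 20.1% lower in *mdx5cv*. All 10 members passed the minimum, and 9 differed, 4 higher and 5 lower. In 40.1% of all genes tested the groups did not overlap, and this was so for 8 of the 10 members. With a minimum absolute log2 fold change of 1 in addition, 13.6% of all genes and 5 members passed, namely *Ckmt2*, which was lower, and *Ckb*, *Gatm*, *Gamt* and *Ampd3*, which were higher. The plot of the members by muscle shows these values.

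**Figure D1:**
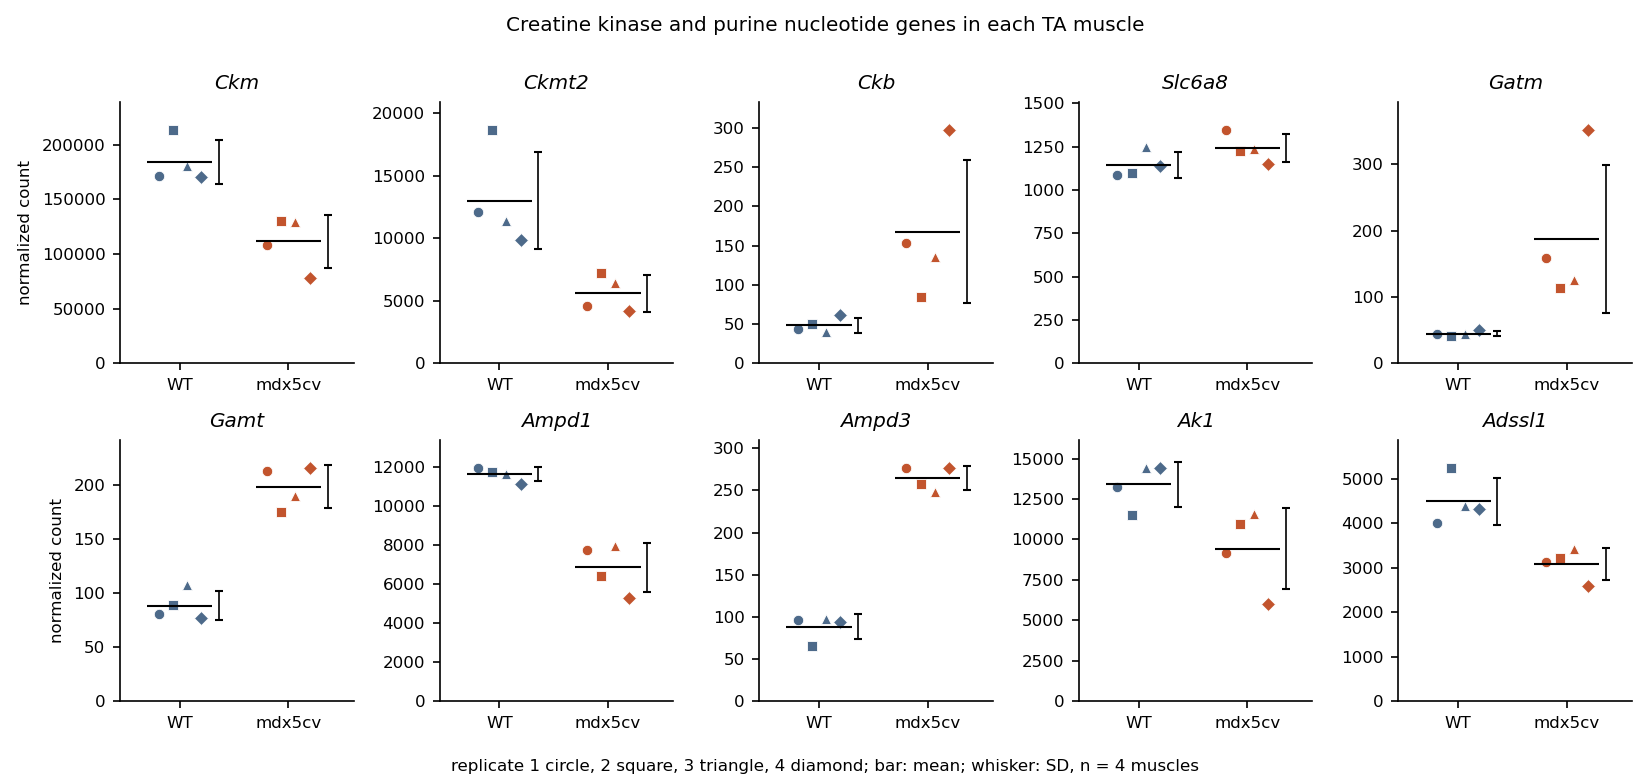
Normalized count (y axis, linear, starting at 0) of each of the 10 genes in the 4 WT and 4 *mdx5cv* TA muscles; marker shapes give the replicate number, bars the mean and whiskers the SD. *Slc6a8* and *Ak1* are the panels in which the groups overlap, and replicate 4 (diamond) is the lowest *mdx5cv* muscle for *Ckm*, *Ckmt2*, *Ampd1*, *Ak1* and *Adssl1* and the highest for *Ckb* and *Gatm*.

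The creatine kinase genes are shown first, with the sequences at their start sites. Each window runs from 250 bases before to 50 bases after the start (RefSeq, GRCm38.p6), written 5′ to 3′ on the gene's strand with the start at position 1. *Ckm* lies at chr7:19410844-19411143 on the plus strand, *Ckmt2* at chr13:91876836-91877135 on the minus strand and *Ckb* at chr12:111672289-111672588 on the minus strand. Capitals mark E-boxes (CANNTG, which reads alike on both strands), the motif bound by MyoD-family and other basic helix-loop-helix proteins, and in *Ckb* a match to the MEF2 consensus.
Ckm: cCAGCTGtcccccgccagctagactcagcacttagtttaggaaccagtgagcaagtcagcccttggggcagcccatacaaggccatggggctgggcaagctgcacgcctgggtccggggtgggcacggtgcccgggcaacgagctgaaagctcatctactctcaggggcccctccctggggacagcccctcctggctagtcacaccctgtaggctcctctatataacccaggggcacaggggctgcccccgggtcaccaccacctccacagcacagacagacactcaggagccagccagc
Ckmt2: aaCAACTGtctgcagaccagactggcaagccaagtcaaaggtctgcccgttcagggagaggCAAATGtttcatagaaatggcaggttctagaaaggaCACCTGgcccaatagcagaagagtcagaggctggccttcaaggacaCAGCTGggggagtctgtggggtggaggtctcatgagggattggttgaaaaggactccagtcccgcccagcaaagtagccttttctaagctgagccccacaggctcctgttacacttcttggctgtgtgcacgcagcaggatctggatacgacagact
Ckb: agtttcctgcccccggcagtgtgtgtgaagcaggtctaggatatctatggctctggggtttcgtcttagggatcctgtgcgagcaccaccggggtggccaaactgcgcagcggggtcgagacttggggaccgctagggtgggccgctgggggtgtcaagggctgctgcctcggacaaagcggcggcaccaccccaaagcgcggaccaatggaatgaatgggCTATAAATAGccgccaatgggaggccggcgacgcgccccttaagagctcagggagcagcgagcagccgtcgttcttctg
*Ckm* held 1 E-box, at position -249, *Ckmt2* held 4, at positions -248, -189, -153 and -107, and *Ckb* held none. Of 32851 windows of the same length, 72.3% held at least 1 E-box, with a median of 1 and an upper quartile of 2 per window. The MEF2 match of *Ckb* began at position -29 and overlapped a TATAAA, searched on the gene's strand, that began at position -28. A MEF2 match on either strand occurred in 0.557% of all windows and a TATAAA in 8.32%. The *Ckb* window also held 22 CpG dinucleotides, against 7 in *Ckm*, 4 in *Ckmt2* and a median of 7 over all windows. These are matches of letters and not measured binding sites. Windows were found for 8 of the 10 members. Of those not printed, *Gatm* and *Gamt* held 1 E-box each, and *Ampd3* held 1, 3 and 0 in its windows. *Ak1* held 3, 1, 2 and 1 in its windows, and *Adssl1* held 2. E-boxes were thus found in windows of higher and of lower members alike. *Ampd1* and *Slc6a8* had no entry.

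*Ckm* (ENSMUSG00000030399, chr7:19404776-19422841, GRCm38, plus strand) encodes the M subunit that makes up most creatine kinase of adult muscle. Its normalized counts were 171556, 213844, 180375 and 170803 in WT replicates 1 to 4 and 108407, 130541, 129125 and 78311 in *mdx5cv* replicates 1 to 4. Every *mdx5cv* muscle was below every WT muscle, and replicate 4 was the lowest. The means were 184144 ± 20271 and 111596 ± 24387 (SD, n = 4), and *Ckm* fell by 0.75 on the log2 scale (SE 0.24, limma adjusted p = 0.0227). This 1 gene took between 1.02% and 1.31% of all reads of a WT muscle and between 0.721% and 0.997% in *mdx5cv*. The call was lost without WT replicate 2 (limma adjusted p = 0.0656), WT replicate 3 (0.0555) or *mdx5cv* replicate 1 (0.0511), and with no minimum on the counts (0.187). An antisense gene, *A930016O22Rik*, shares 451 exon bases with *Ckm* and had a mean of 9.85 normalized counts over the 8 muscles.

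*Ckmt2* (ENSMUSG00000021622, chr13:91853387-91876885, minus strand), the mitochondrial isoform, showed the largest decrease of the 10 genes. It was at 12068, 18689, 11404 and 9884 normalized counts in the WT muscles and at 4538, 7206, 6385 and 4160 in the *mdx5cv* muscles. The groups did not overlap, WT replicate 2 was the highest of all, and *mdx5cv* replicates 1 and 4 were the lowest. The means were 13011 ± 3894 and 5572 ± 1460 (SD, n = 4), and the log2 fold change was -1.22 (SE 0.21, limma adjusted p = 0.000548). *Ckmt1*, the mitochondrial isoform of other tissues, had no read in any muscle.

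*Ckb* (ENSMUSG00000001270, chr12:111669361-111672338, minus strand) encodes the B subunit, which is typical of brain, smooth muscle and myoblasts before they mature. It was scarce in WT, at 43.5, 49.4, 39.8 and 61.4 normalized counts, and reached 153.8, 84.9, 135.1 and 298.1 in *mdx5cv*. The lowest *mdx5cv* muscle was above the highest WT muscle, but the *mdx5cv* muscles were spread widely, from replicate 2, the lowest, to replicate 4, the highest. The log2 fold change was 1.64 (SE 0.29, limma adjusted p = 0.000733), and it was 1.32 without *mdx5cv* replicate 4. The order of the *mdx5cv* muscles for *Ckb* (4, 1, 3, 2) was also the order of their regenerating fiber sums (10697, 5993, 3852 and 3049). By the median log2 deviation of the same markers, and by the fibroblast sums, the order was 4, 3, 1, 2. By the macrophage sums it was 4, 1, 2, 3. The part of regenerating fibers and other cells in the *Ckb* level was not tested.

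Creatine synthesis genes were higher in *mdx5cv* although they stayed scarce. *Gatm* (ENSMUSG00000027199, chr2:122594467-122611303, minus strand), the first step, was at 43.5, 40.6, 44.2 and 49.8 normalized counts in WT and at 159.3, 113.2, 125.2 and 352.4 in *mdx5cv*. Here too the groups were apart, and replicate 4 was again far above the rest. The log2 fold change was 1.90 (SE 0.28, limma adjusted p = 0.000190), the largest of the 10 genes, and 1.54 without *mdx5cv* replicate 4, the muscle with the highest macrophage, fibroblast and regenerating fiber sums, whose part in the *Gatm* level was not tested. *Gamt* (ENSMUSG00000020150, chr10:80258151-80261012, minus strand), the methylation step, was at 80.2, 88.8, 107.2 and 77.3 in WT and at 213.1, 174.5, 190.0 and 215.8 in *mdx5cv*. Its groups were apart and its *mdx5cv* muscles were close together, with replicates 4 and 1 side by side. *Gamt* had a log2 fold change of 1.16 (SE 0.14, limma adjusted p = 3.99e-05).

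*Slc6a8* (ENSMUSG00000019558, chrX:73673150-73682502, plus strand), through which muscle imports creatine, was at 1084, 1098, 1249 and 1136 normalized counts in WT and at 1348, 1226, 1234 and 1152 in *mdx5cv*. The ranges overlapped. The log2 fold change was 0.12 with a 95% interval from -0.09 to 0.32 (limma adjusted p = 0.341). When every muscle was scaled to the same total of reads, or centred on the fast fiber markers, the log2 fold change of *Slc6a8* was 0.48 (limma adjusted p = 0.00422) or 0.49 (0.0300), so its call turned on the scaling.

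In the purine nucleotide cycle, the muscle and the red cell isoforms of AMP deaminase moved apart. *Ampd1* (ENSMUSG00000070385, chr3:103074014-103099720, plus strand), the isoform of skeletal muscle, was at 11975, 11778, 11656 and 11138 normalized counts in WT, which is the tightest group of any member in relation to its mean. In *mdx5cv* it was at 7776, 6421, 7939 and 5297, below every WT muscle. The means were 11637 ± 358 and 6858 ± 1243 (SD, n = 4), and *Ampd1* fell by 0.78 on the log2 scale (SE 0.14, limma adjusted p = 0.000599).

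*Ampd3* (ENSMUSG00000005686, chr7:110768206-110812405, plus strand), found in red blood cells and many other cells, was at 96.3, 65.8, 97.3 and 94.3 normalized counts in WT and at 277.0, 257.5, 247.6 and 276.5 in *mdx5cv*. The 4 *mdx5cv* muscles lay close together and far above WT, and replicate 4 did not stand apart. The log2 fold change was 1.59 (SE 0.14, limma adjusted p = 5.13e-06), the lowest adjusted p of the 10 genes. Of the erythrocyte markers, globin genes among them, 3 of 5 were lower in *mdx5cv* and none higher, beside 20.1% lower over all genes tested. Their summed level was 694 to 1240 in WT and 342 to 733 in *mdx5cv*. Of the markers of other cells, 8 of 8 macrophage, 7 of 8 fibroblast and 7 of 7 regenerating fiber genes were higher. So were 4 of 7 slow fiber genes, beside 20.9% higher over all genes tested. Lower were 1 slow fiber gene and 4 of 8 fast fiber genes. The same held for 5 of 5 endothelial, 2 of 3 tested adipocyte and 3 of 5 Schwann cell genes. The part of red cells and of other cells in the *Ampd3* level was not tested. *Ampd3* shares 195 exon bases with *Rnf141* on the opposite strand (mean 314 normalized counts over the 8 muscles), and whether the counting used the strand is not given in the sources used here.

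*Adssl1* (ENSMUSG00000011148, chr12:112620045-112641360, plus strand), the muscle adenylosuccinate synthetase that starts the return from IMP to AMP, was at 4012, 5244, 4392 and 4310 normalized counts in WT and at 3119, 3213, 3420 and 2581 in *mdx5cv*. The groups did not overlap. The log2 fold change was -0.54 (SE 0.12, limma adjusted p = 0.00298). *Ak1* (ENSMUSG00000026817, chr2:32621758-32635058, plus strand), the cytosolic adenylate kinase, was at 13277, 11503, 14417 and 14438 in WT and at 9186, 10935, 11606 and 6025 in *mdx5cv*. *mdx5cv* replicate 3 reached above WT replicate 2, so the groups overlapped. *Ak1* had a log2 fold change of -0.54 as well, with a larger error (SE 0.18, limma adjusted p = 0.0308). It was -0.34 without *mdx5cv* replicate 4, and the call of *Ak1* was lost without WT replicate 1, 3 or 4 or *mdx5cv* replicate 1 (limma adjusted p from 0.0621 to 0.0818).

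The scaling mattered for the smaller changes. Over all genes tested, the median log2 fold change was 0.00 with the deposited size factors, 0.36 with equal totals and 0.38 after centring on the fast fiber markers. Under these scalings 8 members were called, with *Slc6a8* joining the higher genes and *Ak1* and *Adssl1* no longer called (limma adjusted p = 0.327 and 0.187 with equal totals, 0.349 and 0.439 relative to the fast fiber markers). *Ckm* was then at -0.39 and -0.37, *Ampd1* at -0.42 and -0.41 and *Ckmt2* at -0.86 and -0.84, all still lower at an adjusted p under 0.05 (limma). Measured against the median gene, *Ckm* was at -0.75 under the deposited size factors and under both of these scalings. This holds nearly by construction, because a scaling shifts all genes of a muscle alike, and it is no check of the *Ckm* result. Centred on the median of the fast fiber markers, then, 5 members were higher and 3 lower, as the plot of fold changes under the 3 scalings shows. The median log2 deviation of these markers from the WT mean was -0.83 in *mdx5cv* replicate 4. It was -0.25 to -0.16 in the other *mdx5cv* muscles.

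**Figure D2:**
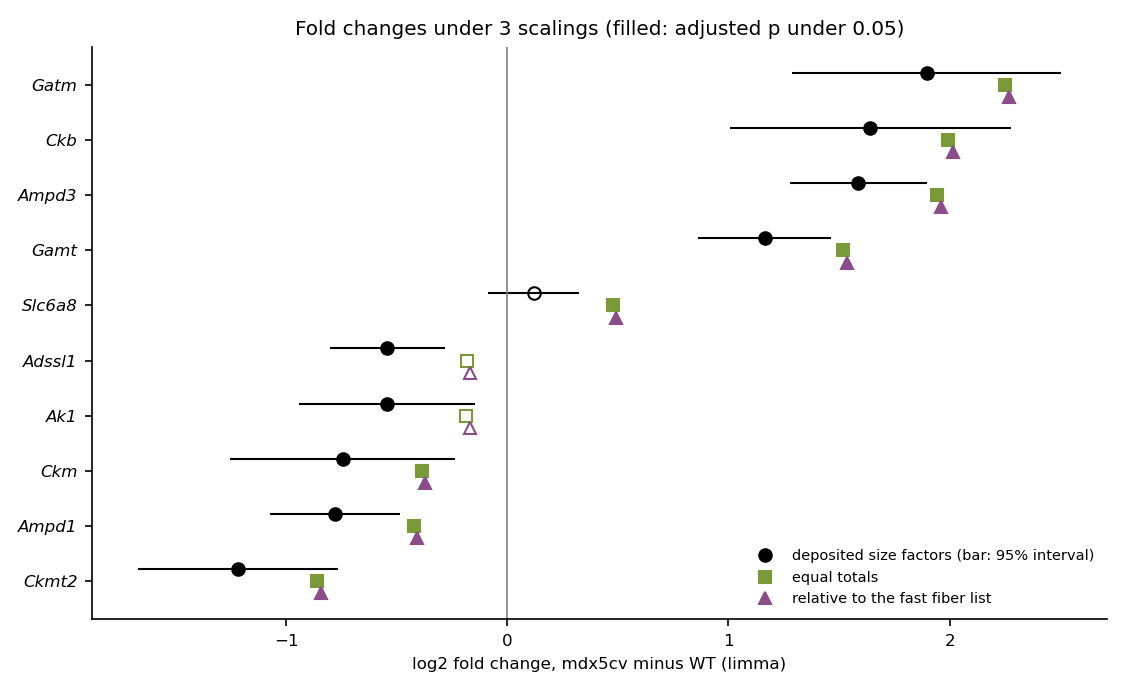
Log2 fold change of each gene, *mdx5cv* minus WT (x axis), with the deposited size factors (circles, with 95% intervals), equal totals (squares) and centring on the fast fiber markers (triangles); filled symbols have an adjusted p under 0.05. *Gatm*, *Ckb*, *Ampd3* and *Gamt* lie above 1 under all 3 scalings, *Ckmt2*, *Ampd1* and *Ckm* lie below 0 with filled symbols throughout, and *Slc6a8*, *Adssl1* and *Ak1* change between open and filled.

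Levels of different genes were compared per kb of merged exon, which ranged from 1.44 kb in *Gamt* to 5.63 kb in *Ampd3*. In WT the order was *Ckm* (63215 ± 6959 normalized counts per kb, SD, n = 4), *Ckmt2* (8756 ± 2620), *Ak1* (5171 ± 533), *Ampd1* (3280 ± 101), *Adssl1* (2148 ± 253), *Slc6a8* (219 ± 14.4) and *Gamt* (61.2 ± 9.33), with no overlap between neighbours. The last in the order, *Ckb* (16.8 ± 3.27), *Ampd3* (15.7 ± 2.69) and *Gatm* (14.8 ± 1.28), overlapped each other. In *mdx5cv* the spread of levels was narrower. *Ckm* stayed first at 38310 ± 8372 per kb, but *Ckmt2* (3750 ± 983) came down to the range of *Ak1* (3640 ± 962), and *Ampd1* (1933 ± 350) to that of *Adssl1* (1475 ± 171). *Slc6a8* (238 ± 15.5) and *Gamt* (137 ± 13.6) kept ranges of their own, and *Gatm* (62.5 ± 37.2), *Ckb* (58.0 ± 31.6) and *Ampd3* (47.0 ± 2.58) overlapped again.

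**Figure D3:**
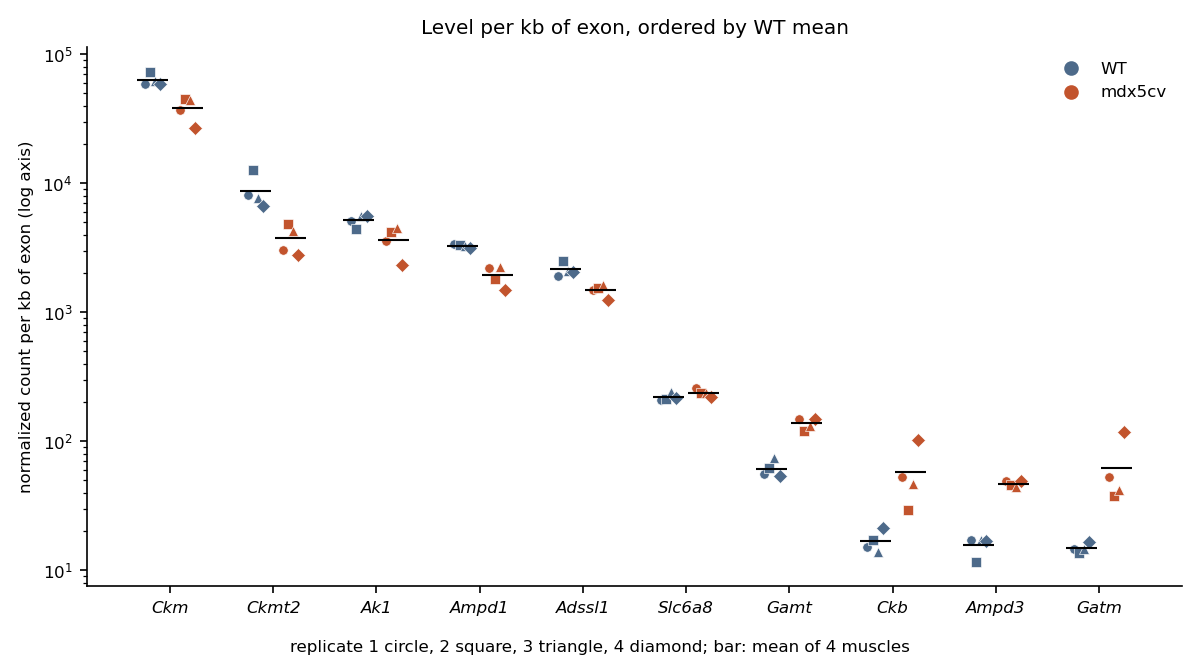
Normalized count per kb of merged exon (y axis, log scale) of the 10 genes in order of the WT mean, with 4 WT and 4 *mdx5cv* muscles per gene; bars are means. The 5 most abundant genes are lower in *mdx5cv* and the 4 least abundant are higher, with *Slc6a8*, the sixth gene, between 208 and 259 per kb in all 8 muscles.

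The isoforms were then set against each other within each muscle, which removes the size factor. The log2 ratio of *Ckb* to *Ckm* was between -12.11 and -11.42 in WT and between -10.57 and -8.03 in *mdx5cv*, a difference of 2.39 (SE 0.56). The ratio of *Ampd3* to *Ampd1* was between -7.46 and -6.87 in WT and between -5.00 and -4.26 in *mdx5cv*, a difference of 2.37 (SE 0.21). *Ckmt2* fell relative to *Ckm*, with log2 ratios between -4.11 and -3.52 in WT and between -4.58 and -4.18 in *mdx5cv*, a difference of -0.47 (SE 0.16). The groups did not overlap in any of these 3 ratios. The exact two-sided permutation test gave p = 0.0286 for each, the smallest that 4 against 4 muscles can give (0.0429 adjusted over the 6 ratios compared). For *Ckb* to *Ckm* and *Ampd3* to *Ampd1* this outcome was set in advance, since the genes of each pair had already separated in opposite directions. Their tests thus add nothing to the results of the single genes. They also count among the 6 ratios of the adjustment. The adjusted p of *Ckmt2* to *Ckm* and of *Gamt* to *Gatm* leans on them and would be higher without them. The ratio of *Gamt* to *Gatm* had the same exact p, with a difference of -0.73 (SE 0.35) that was -0.42 without *mdx5cv* replicate 4, but its groups nearly touched, at 0.63 in the lowest WT muscle and 0.62 in the highest *mdx5cv* muscle. With a pseudocount of 10 in place of 1 these 2 muscles changed order, and the adjusted exact permutation p was 0.103 for this ratio and 0.0571 for each of the other 3. For *Ak1* to *Ckm* the difference was 0.20 (SE 0.16, exact permutation p = 0.257), and for *Adssl1* to *Ampd1* it was 0.24 (SE 0.11, exact permutation p = 0.0857). Their groups overlapped.

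**Figure D4:**
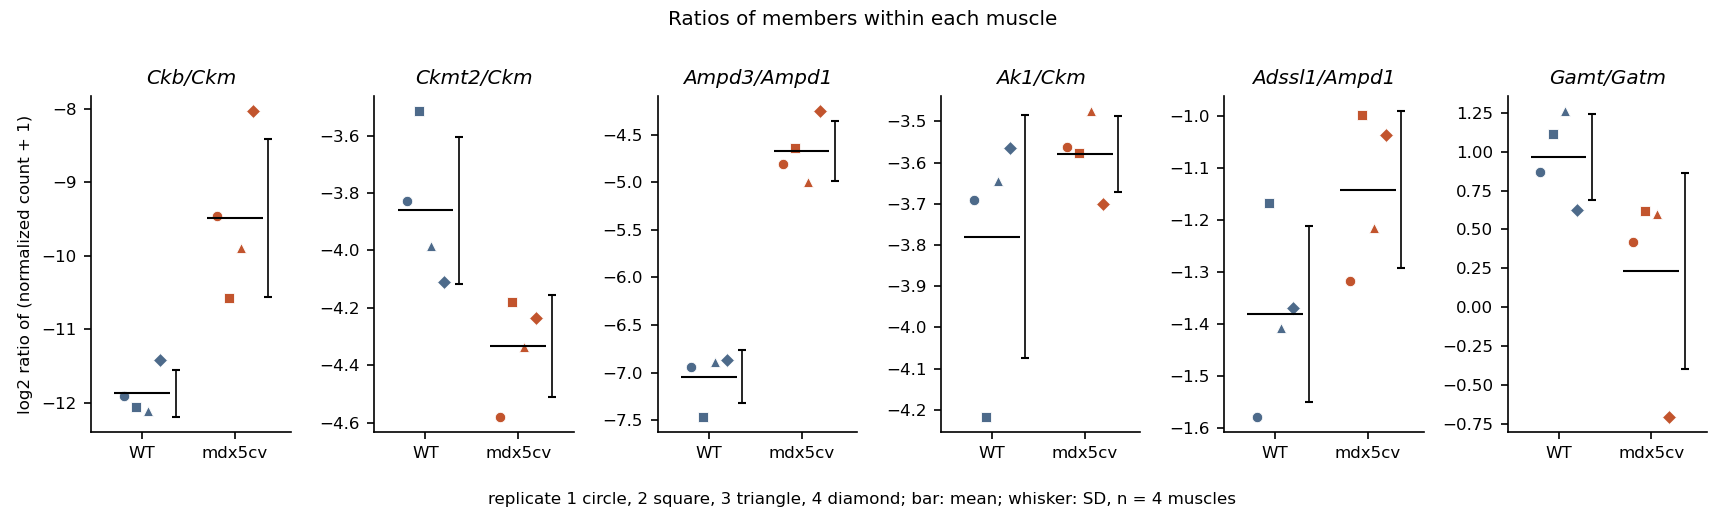
Log2 ratio of normalized counts + 1 (y axes, each panel with its own range) for 6 pairs of genes in each muscle; marker shapes give the replicate number, bars the mean and whiskers the SD. *Ckb*/*Ckm*, *Ckmt2*/*Ckm*, *Ampd3*/*Ampd1* and *Gamt*/*Gatm* separate the groups, and replicate 4 (diamond) is the highest *mdx5cv* muscle for *Ckb*/*Ckm* and the lowest for *Gamt*/*Gatm*.

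As shares of the level per kb, the minor isoforms remained minor. *Ckb* was 0.0268% ± 0.00642 of *Ckb* plus *Ckm* in WT and 0.174% ± 0.142 in *mdx5cv* (SD, n = 4), where replicate 4 was at 0.382%. *Ckmt2* was 12.0% ± 1.93 of *Ckmt2* plus *Ckm* in WT and 8.90% ± 0.961 in *mdx5cv*. Of the AMP deaminase genes together, *Ampd3* made up 0.476% ± 0.0848 in WT and 2.42% ± 0.529 in *mdx5cv*. *Ampd2*, the isoform best known from liver, made up 0.273% ± 0.0179 and 1.01% ± 0.276. *Ampd1* was the rest, and it was thus the main AMP deaminase RNA in both genotypes. *Adssl1* was 98.5% ± 0.195 of the adenylosuccinate synthetase level in WT and 97.3% ± 0.644 in *mdx5cv*.

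Other genes of the pathway were counted in 7 lists of 67 genes, of which 59 passed the minimum. Of these 59, 12 were higher and 23 lower (limma adjusted p under 0.05), 35 called in all, beside 40.9% called, 20.9% higher and 20.1% lower over all genes tested. Relative to the fast fiber markers 16 were higher and 3 lower, and with equal totals 21 were higher and 7 lower, so the direction of these lists depends on the scaling, and the values that follow are those with the deposited size factors.

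Among the partners of the purine nucleotide cycle, all 3 genes were called. *Adsl*, adenylosuccinate lyase, which completes the cycle after ADSSL1, averaged 1335 ± 44.7 normalized counts in the WT muscles and 941 ± 139 in the *mdx5cv* muscles (SD, n = 4). Its log2 fold change was -0.52 (limma adjusted p = 0.00297). *Adss*, the synthetase of other tissues, was higher by 0.33 (0.0492), and *Ampd2* by 1.10 (0.000167). For AMP deaminase and for the synthetase alike, the isoforms of other tissues were higher and the muscle isoform lower with the deposited size factors. The synthetase result was the weaker, with *Adss* close to the threshold. *Adssl1* was not called with equal totals (limma adjusted p = 0.187) or relative to the fast fiber markers (0.439). Among the other adenylate kinases, *Ak3*, of the mitochondrial matrix, was at -0.32 (0.0204) and *Ak6*, a nuclear kinase, at -0.61 (0.00494).

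Of the 6 genes for the exchange of ADP, ATP and phosphate across the mitochondrial membranes, beside which CKMT2 works, 5 were lower. *Slc25a4*, the ADP/ATP carrier of heart and skeletal muscle, was at 29775, 29842, 29858 and 28511 normalized counts in WT and at 15776, 19879, 19829 and 11219 in *mdx5cv*. Its groups were far apart, and its log2 fold change was -0.86 (SE 0.18, limma adjusted p = 0.00190). *Slc25a5*, the carrier isoform of proliferating and many other cells, was the 1 gene of the list that was higher (0.74). The phosphate carrier *Slc25a3* (-0.56) and the outer membrane channels *Vdac1* (-0.46) and *Vdac3* (-0.72) were lower. The median log2 fold change of this list was -0.59, against 0.00 over all genes tested.

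Of 10 genes of AMP-activated protein kinase, the AMP sensor of the cell, and its activators, 3 were lower and 1 higher, a share called near the 40.9% of all genes tested. *Prkaa2*, the catalytic subunit most abundant in muscle, was at 6093 ± 248 normalized counts in WT and 4233 ± 558 in *mdx5cv* (SD, n = 4). This was a log2 fold change of -0.53 (limma adjusted p = 0.00266). The regulatory subunit gene *Prkab2* was at -0.76 (0.00158) and *Cab39*, part of the upstream kinase complex, at -0.57 (0.00125). *Prkag2*, another regulatory subunit, was higher by 0.99 (0.000736). The list median was -0.10.

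Purine synthesis and salvage moved less evenly. In de novo synthesis 4 of 13 genes were lower and 1, *Prps2*, was higher (0.72), a share called near the 40.9% of all genes tested, with a median of -0.10. *Ppat*, the committed step, was at -0.76 (limma adjusted p = 7.03e-05), *Paics*, a later step, at -0.50 (0.000820), *Gmps*, which makes GMP, at -0.31 (0.0248) and *Guk1*, which phosphorylates it, at -0.64 (0.0101). In salvage and breakdown 4 of 13 tested genes were higher and 4 lower, with a median of 0.06. *Nt5c1a*, a muscle nucleotidase that cuts AMP to adenosine, was at 228.1, 244.6, 199.0 and 216.1 normalized counts in WT and at 88.9, 76.4, 92.7 and 33.6 in *mdx5cv*. The groups were far apart, replicate 4 was the lowest, and the log2 fold change of -1.69 (SE 0.26, limma adjusted p = 0.000232) was the largest decrease in the 7 lists. *Nt5c2*, a nucleotidase that prefers IMP and GMP, was higher by 0.85 (0.000385). *Adk*, which returns adenosine to AMP, was at -0.65 (0.00750) and *Hprt*, which returns hypoxanthine to IMP, at -0.50 (0.0310).

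Of the genes that supply the amino acids and methyl groups of creatine, 4 of 10 tested were lower and 2 higher, with a median of -0.18. *Oat*, an ornithine aminotransferase, was at -0.69 (limma adjusted p = 0.00216), the arginine transporter *Slc7a2* at -0.45 (0.0207), *Mat2b*, a subunit of the enzyme that makes S-adenosylmethionine, at -0.45 (0.0146), and *Shmt1*, which interconverts serine and glycine, at -1.13 (0.000156). The 2 higher genes were *Slc7a1*, another arginine transporter (1.05, limma adjusted p = 0.00141), and *Asl*, which makes arginine (0.86, 0.00196). The plot of the pathway lists shows the tested genes of 6 lists.

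**Figure D5:**
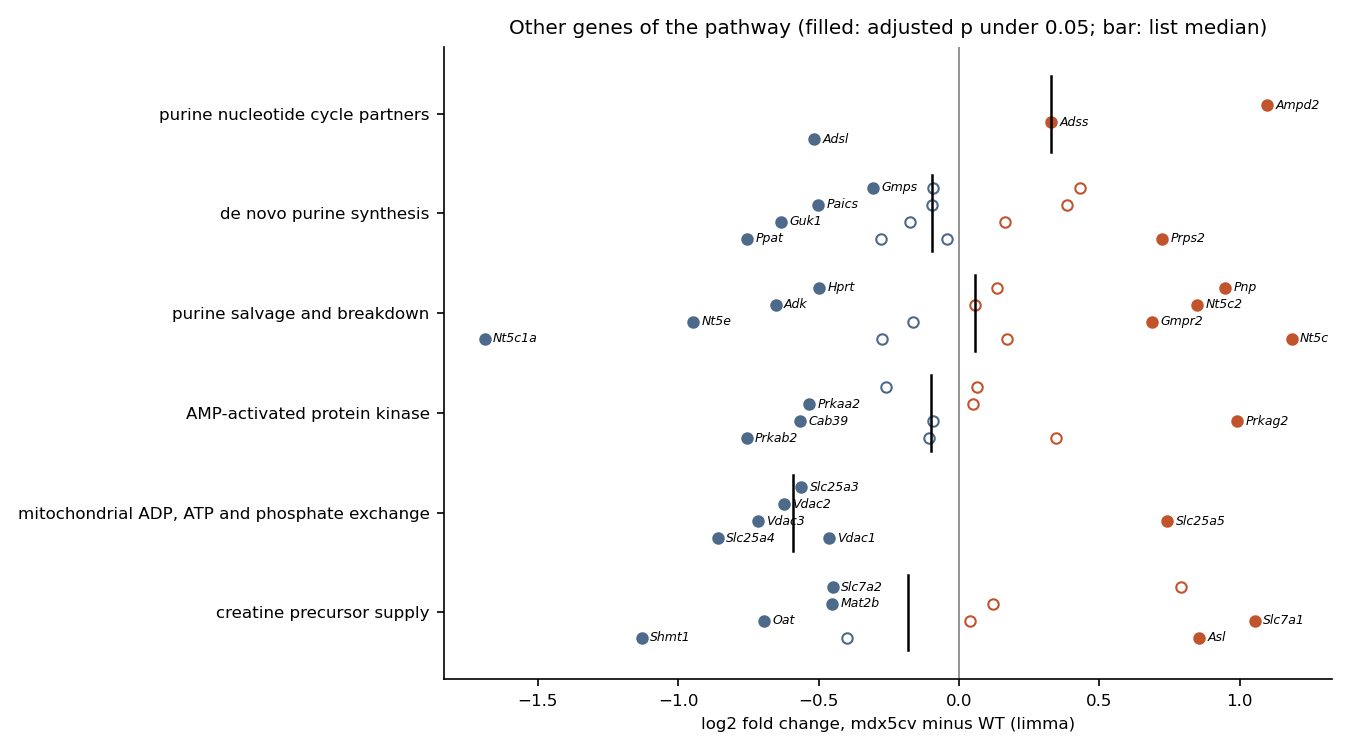
Log2 fold change, *mdx5cv* minus WT (x axis), of the tested genes in 6 of the 7 lists (rows); filled points have an adjusted p under 0.05, and a vertical bar marks each list's median. The mitochondrial exchange list has its median furthest below 0, at -0.59, with *Slc25a5* alone on the right, and the purine salvage list spreads from -1.69 to 1.18.

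The genes with the most similar profiles over the 8 muscles were ranked by Euclidean distance between log2 deviations from the WT mean, among 7641 genes with a mean of at least 100 normalized counts. For *Ckm* they were *Ndufa1*, a complex I subunit (0.168), *Tmem147* (0.196) and *Pygm*, muscle glycogen phosphorylase (0.197). For *Ampd1* they were *Ss18l2* (0.189), *Tpd52l1* (0.214) and *Msrb3*, a methionine sulfoxide reductase (0.225). For *Ampd3* they were *Ache*, acetylcholinesterase (0.367), *Aebp1* (0.405) and *Tagln2* (0.529), and for *Ckb* they were *Vcan*, the matrix proteoglycan versican (0.492), *Gusb*, a lysosomal enzyme (0.569), and *Tuba1a*, an alpha tubulin (0.585).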

How the data were processed

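RNA-seq values of 4 WT and 4 *mdx5cv* TA muscles were grouped by the genotype in their labels. The values the authors deposited are a signal for each of 55401 genes: its read count after division by the size factor of the muscle. Genes without reads are kept in the table. The submitters' processing notes name Trim Galore 0.6.4, STAR 2.6.0c, SAMtools 1.9, featureCounts, DESeq2 1.26.0, R 3.6.2 and mm10. Their settings are not given in the sources used here. The paper's sequencing methods describe another dataset of the study. Libraries were stranded and made from total RNA.

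Whole reads were recovered for 100% of the values within 0.001, and the size factors equalled median-of-ratios factors. Depth was between 13175524 and 14921057 reads per muscle. No pair of replicates differed by less than sampling noise.

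The main test was limma 3.58.1 in R 4.3.3 (two-sided, moderated with eBayes and a variance trend) on log2(normalized count + 1) over the 13677 genes with a mean of at least 10, with Benjamini-Hochberg adjustment. Fold changes on this scale understate the change of low genes. Ratios within a muscle were compared with an exact permutation test. edgeR 4.0.16 and DESeq2 1.42.0 on the recovered reads, other scalings, pseudocounts, filters, a replicate block and leaving out each muscle were alternatives. On simulated data for the *mdx5cv* and WT comparison, with 200 genes given a log2 fold change of 2, limma recovered 99% over 13573 genes, with 14 unchanged genes called. The simulation gave every gene the same extra variance between muscles and changed few genes, whereas 40.9% were called in the real data. It therefore checks the code and does not measure power or error in these data. Python 3.11.15 was used for other steps.

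The 10 members, the pathway lists and the marker lists were chosen with earlier results of these data known. Named pathway genes are those with an adjusted p under 0.05, at most the 4 of highest mean per list. The result of 1 gene that this rule names is not reported here. *Slc25a5*, *Prps2*, *Slc7a1*, *Asl* and *Ckmt1* were named after their values were seen. Coordinates were taken from GENCODE M21 (GRCm38), in which 55141 gene IDs of the table were found with versions ignored, and sequences are those of RefSeq.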

Additional observations from a re-analysis of the deposited data

Results flagged for a closer look

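Within each group of 4 muscles, the gap between the most extreme muscle and its nearest neighbour was compared with the range of the group. Of 102 sets of 4 values, 10 had a gap over Dixon's 95% critical share of the range, where chance gives about 5.1, or 1 in 20. All values here are on the log2 scale. For *Ampd3*, WT replicate 2 was at 6.06, below the other WT muscles at 6.57 to 6.62, and its ratio of *Ampd3* to *Ampd1* was at -7.46, against -6.94 to -6.87. In the same muscle the median deviation of the fast fiber markers was -0.17, against 0.06 to 0.08, and that of the fibroblast markers was 0.31, against -0.12 to -0.08. In *mdx5cv* replicate 4 the ratio of *Gamt* to *Gatm* was at -0.71, against 0.42 to 0.62, *Prkab2* at 11.04, against 11.67 to 11.80, and *Vdac1* at 12.31, against 12.70 to 12.77. Its fast fiber deviation was -0.83, against -0.25 to -0.16. The last flags were small in size. *Slc25a4* was at 14.80 in WT replicate 4, against 14.86 to 14.87, and *Shmt1* at 6.46 in WT replicate 1, against 6.65 to 6.67. The part of cell content in these values was not tested.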

How the results depend on the processing

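No member changed direction under any alternative. Of the 10 members, 9 were called in the reported fit, 7 to 9 under the other settings, the lowest without WT replicate 3 or *mdx5cv* replicate 1, and 5 with a minimum absolute log2 fold change of 1, which by construction calls fewer genes. *Ckmt2*, *Ckb*, *Gatm*, *Gamt*, *Ampd1* and *Ampd3* stayed called in all 20 alternative fits. Over all genes the count was 5597 in the reported fit, 4568 to 6348 under other settings, and 1861 with the minimum fold change. The share of calls that were higher was 51.0% in the reported fit, 87.2% with equal totals, 90.2% relative to the fast fiber markers and 41.2% when centred on the median. In the pathway lists 35 genes were called in the reported fit, 19 relative to the fast fiber markers (16 higher and 3 lower) and 5 with the minimum fold change (3 higher and 2 lower). Besides the losses given above, *Ak1* was not called without a variance trend (limma adjusted p = 0.0648).

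With a pseudocount of 10, the differences of the log2 ratios were 2.23 for *Ckb* to *Ckm*, -0.47 for *Ckmt2* to *Ckm* and 2.27 for *Ampd3* to *Ampd1*, each with an adjusted exact permutation p of 0.0571, and -0.63 for *Gamt* to *Gatm* (0.103). For *Gamt* to *Gatm* the groups then overlapped, and the adjusted p of the other ratios rose with it, while their groups stayed apart. Leaving out 1 muscle gave 1.90 to 2.75, -0.56 to -0.36, 2.23 to 2.48 and -0.86 to -0.42 in the same order, with 3 against 4 muscles, for which the smallest exact permutation p is 0.0571.

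With the replicate number as a block, 5616 genes and 9 members were called. Blocked, the ratios kept their differences of 2.39, -0.47, 2.37 and -0.73, with an adjusted exact permutation p of 0.15 each, since 4 pairs cannot give less than 0.125. The numbers were not taken as pairs, because the labels do not say that they mark pairs. The correlations of deviations between muscles with the same number were 0.05, 0.03, 0.07 and 0.15. WT replicates 3 and 4 correlated best with the *mdx5cv* muscle of the same number. WT replicates 1 and 2 correlated best with *mdx5cv* replicates 2 and 4, so these values do not settle whether the numbers mark pairs.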
